A study of Mus musculus with 40 samples.

Results

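The response to TNFα that cardiac fibroblasts keep, and the response that they gain, after deletion of the kinase TAK1 (gene *Map3k7*) was measured by RNA sequencing in 8 libraries of a series of 40. The fibroblasts came from hearts of adult C57BL/6J TAK1fl/fl mice, were grown in medium with serum and bFGF, and were transduced at passage 1 with an adenovirus that carries iCre under the CMV promoter. After a rest they were serum-starved and received either TNFα at 10 ng/ml or no ligand (CTRL) for 24 h before RNA was isolated, with 4 libraries in each group. The same pair of groups was made from TAK1fl/fl fibroblasts with a LacZ adenovirus, which leaves the floxed gene intact, and iCre fibroblasts with IL-1β (15 ng/ml) served as the most similar condition. All groups share the floxed genotype and a virus. The study's legends call the libraries of a group biological replicates from male mice, but the labels do not say which animal or isolation a replicate number marks, so p-values measure the spread between these libraries. Libraries were compared as pairs with the same replicate number, and each of the 25210 genes with at least 10 counts over the 40 libraries was tested.

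TNF receptor 1 assembles a complex in which ubiquitin chains recruit TAK1 with its TAB partners. TAK1 activates the IKK complex, which releases NF-κB, and the MAP kinases that feed AP-1. NF-κB then induces chemokines, adhesion molecules and its own inhibitors, among them IκBα and A20. In fibroblasts of the heart, TNFα is known for an inflammatory programme of chemokines and adhesion molecules, and a cell that cannot activate TAK1 is known to be more sensitive to death signals from the same receptor.

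Values are CPM, which are counts scaled by library size, and a change is the log2 fold change of TNFα over CTRL from edgeR's quasi-likelihood test with the replicate number as a block, given with its standard error (SE) and Benjamini-Hochberg adjusted p over all genes. A gene was called at an adjusted p of at most 0.05. By this test 4760 genes were higher and 4349 lower with TNFα in iCre fibroblasts, which is 18.9% and 17.3% of the genes tested, with a median change of −0.04 over all genes. In LacZ fibroblasts 4330 genes (17.2%) were higher and 4632 (18.4%) lower, and without the block 2745 and 2613. Because bulk RNA was sequenced, fewer cells of a type and less RNA per cell cannot be told apart.

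The 12 libraries of iCre fibroblasts with TGFβ, IL-1β or TNFα differed from the other 28 in how read counts followed the GC content of transcripts. Fitted over 12298 genes, log2 CPM rose by 0.184 to 0.294 for each 10% of GC in the 4 TNFα libraries of iCre and changed by −0.0708 to −0.00138 in the 4 CTRL libraries. Between the fifth of genes with the lowest GC content and the fifth with the highest, the median change with TNFα in iCre rose from −0.34 to 0.22, and after a smooth GC trend was removed from each library both medians were within 0.03 of 0. This shift and the effect of TNFα in iCre cannot be told apart from the design, because every TNFα library has the shift and no CTRL library does. A second fit was therefore made with the block and the GC correction, in which 8530 of 24970 genes (34.2%) were called, 3988 higher and 4542 lower. Its values are given beside the counts of classes and for the genes described whose call in iCre it ended, and changes are otherwise those of the first fit. A call is described as held where it passed with the same sign in both fits, as 3526 higher and 3606 lower genes did. Among genes called in both fits, 43 fell in the first and rose in the second, and 0 went the other way.

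**Figure D1:**
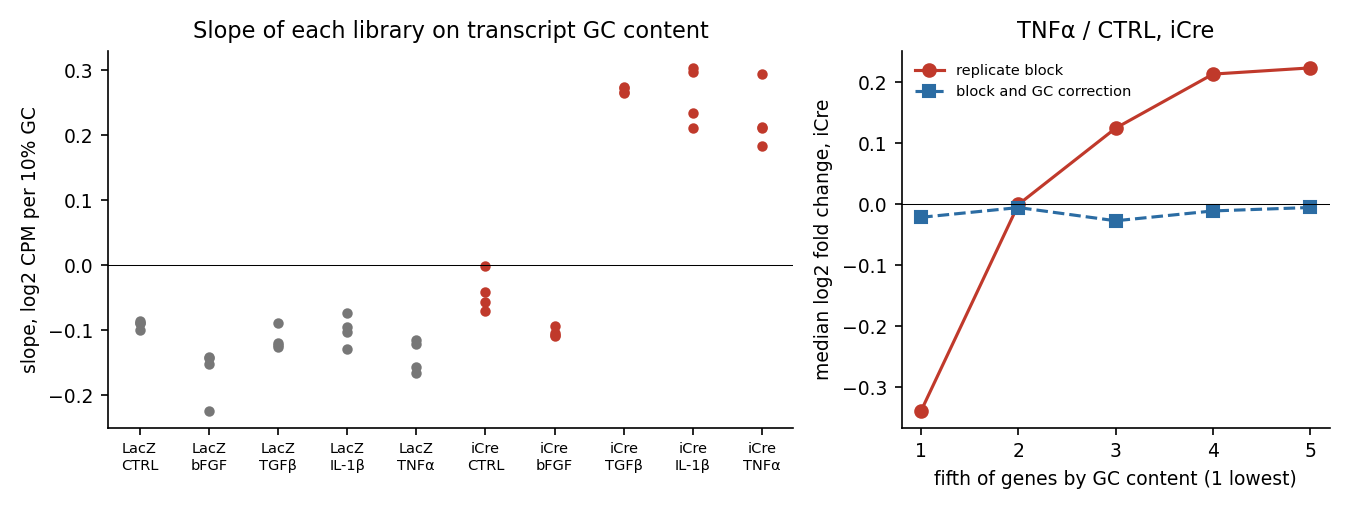
Left, slope of log2 CPM on transcript GC content (log2 CPM per 10% GC) for each of the 40 libraries, 1 point per library, grouped by virus and ligand. Right, median log2 fold change of TNFα over CTRL in iCre fibroblasts for 5 equal groups of genes ordered by GC content, before and after the GC correction. The 12 iCre libraries with TGFβ, IL-1β and TNFα lie between 0.184 and 0.304 and the other 28 between −0.224 and −0.00138.

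*Map3k7*, at chr4:31964097-32023467 (GRCm38), is the targeted gene. It was at 128, 123, 126 and 133 CPM in the 4 iCre CTRL libraries and at 150.1, 126, 145 and 155 CPM with TNFα, and at 155, 144, 154 and 159 and 251, 209, 243 and 251 CPM in LacZ fibroblasts. The iCre and LacZ libraries did not overlap in either condition, and with TNFα the gene rose by 0.64 in LacZ (SE 0.06, edgeR adjusted p = 4.37e-08) and by 0.21 in iCre (SE 0.07, edgeR adjusted p = 0.0344), with a difference of −0.44 (SE 0.08, edgeR adjusted p = 0.000615). The rise in iCre lost its call without replicate 1, 3 or 4, with changes of 0.19, 0.19 and 0.17, and its edgeR adjusted p was 0.106 without the block. The floxed allele loses exon 2 and leaves a truncated product, and these counts sum all exons, so the level of *Map3k7* does not check the deletion. The labelled cell type was checked with 16 fibroblast genes, all of which were measured. Their summed level was 20982 to 37485 CPM in iCre CTRL and 15546 to 23695 CPM with TNFα. Collagens make up much of this sum, so it says little of the other fibroblast genes.

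Genes were sorted by what TNFα did with and without TAK1. The response remained, with the same sign past the threshold in iCre and LacZ, for 2248 higher and 2393 lower genes. It appeared without TAK1, being called in iCre, not called in LacZ, and past the test of the interaction (the difference between the TNFα effect in iCre and in LacZ) in the same direction, for 1444 higher and 863 lower genes. Over all genes the interaction was positive for 3334 (13.2%) and negative for 2999 (11.9%). The balance turned after GC correction, with 2632 positive and 2799 negative, and with DESeq2's size factors, with 2921 and 3254. It also turned with DESeq2's test (3326 and 3632) and with an absolute log2 fold change of at least 1 required (928 and 1198). Leaving out any 1 replicate number turned it too, with 3149 and 3269 without replicate 1 and 2375 and 2770 without replicate 2. The counts were 1925 and 2033 without replicate 3, 2066 and 2099 without replicate 4 and 2113 and 1941 without the block. A further 429 genes rose in iCre and fell in LacZ, and 523 fell in iCre and rose in LacZ. These opposite responses numbered 179 and 305 without replicate 3, 196 and 331 without replicate 4, 109 and 177 without the block and 335 and 426 after GC correction, of which 238 and 299 were opposite in both fits. Of the genes that TNFα raised in LacZ, 1559 were not called in iCre, and 798 of these had a negative interaction (1815 and 938 after GC correction). With the GC correction as well, 1786 higher and 2194 lower genes stayed in the class that remained, and 869 and 490 in the class that appeared.

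The response that remained was not of 1 size. Of the 2248 genes that rose in both, 602 rose more in iCre and 258 less by the interaction test, and their median change was 0.69 in iCre and 0.48 in LacZ. These counts were 230 and 128 without replicate 3, 276 and 158 without replicate 4, 172 and 121 without the block and 451 and 243 after GC correction. With a size of at least 1 required of both changes and of their difference, the order turned, with 16 that rose more and 63 that rose less. For the 1444 genes that appeared the medians were 0.64 in iCre and −0.02 in LacZ. These classes use the iCre and LacZ tests, so their medians describe the sorting.

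**Figure D2:**
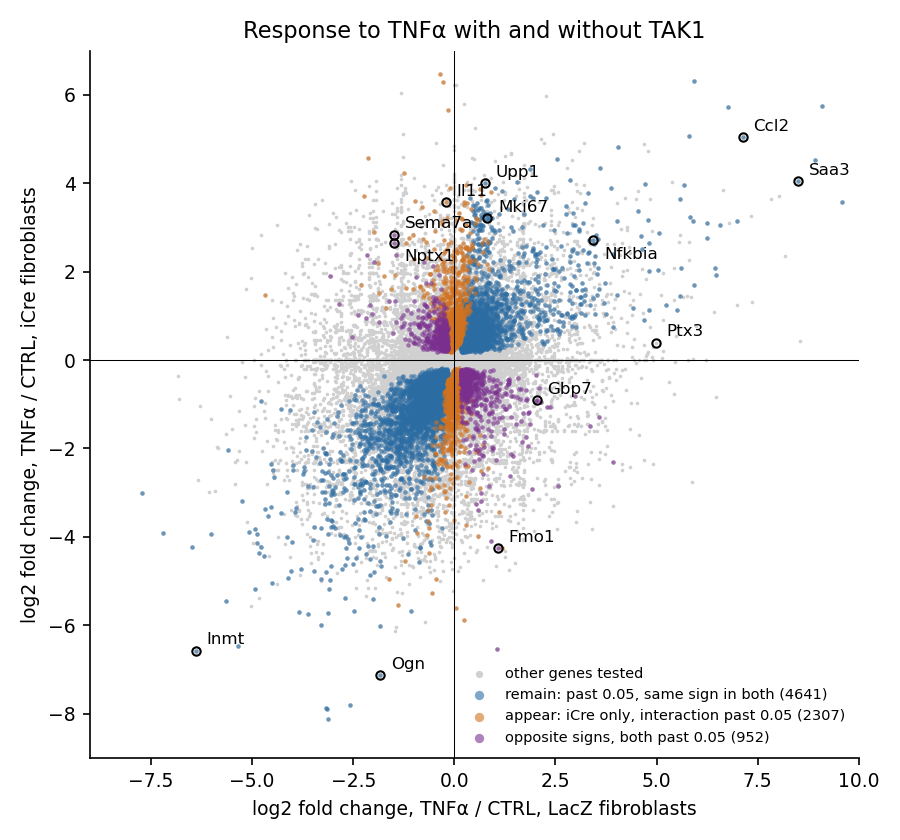
Log2 fold change of TNFα over CTRL in LacZ fibroblasts (horizontal) against iCre fibroblasts (vertical), 1 point per gene tested, coloured by class, with the number of genes in each class in the legend. *Ccl2* and *Saa3* lie far to the right and rose less in iCre, *Nptx1*, *Sema7a*, *Il11* and *Upp1* lie near or left of 0 in LacZ and above 0 in iCre, and *Ogn* fell by 7.13 in iCre.

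Promoter sequences of genes with the largest changes are shown to place both kinds of response beside the element that NF-κB binds. *Tnip3*, which encodes an A20-binding inhibitor of NF-κB, and *Madcam1*, which encodes the addressin that lymphocytes bind through integrin α4β7, are the leading genes of the response that remained with a promoter in the table used. *Aunip*, which encodes a partner of Aurora A and ninein at the spindle pole, is such a gene for the response that appeared. Each run covers 250 bases before and 50 after the RefSeq start (RefSeq sequence, GRCm38.p6), 5′ to 3′ on the + strand, with matches to the κB consensus motif on either strand in capitals. They lie at chr6:65590148-65590447, chr10:79664309-79664608 and chr4:134510749-134511048. The RefSeq start used for *Tnip3* lies 65085 bases from the gene start in the annotation, while those of the other genes coincide with it.
Tnip3: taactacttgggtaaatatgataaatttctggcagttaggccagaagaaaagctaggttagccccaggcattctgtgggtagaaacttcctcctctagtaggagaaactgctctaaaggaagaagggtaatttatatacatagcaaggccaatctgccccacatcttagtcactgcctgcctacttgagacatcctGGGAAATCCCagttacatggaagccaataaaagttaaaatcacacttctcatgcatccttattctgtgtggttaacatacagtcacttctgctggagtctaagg
Madcam1: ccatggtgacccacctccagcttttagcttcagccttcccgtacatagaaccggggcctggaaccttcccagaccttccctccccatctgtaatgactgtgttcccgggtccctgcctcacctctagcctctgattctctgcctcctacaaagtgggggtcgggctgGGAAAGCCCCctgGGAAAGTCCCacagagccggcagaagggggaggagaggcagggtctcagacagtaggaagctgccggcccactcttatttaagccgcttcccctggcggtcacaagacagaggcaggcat
Aunip: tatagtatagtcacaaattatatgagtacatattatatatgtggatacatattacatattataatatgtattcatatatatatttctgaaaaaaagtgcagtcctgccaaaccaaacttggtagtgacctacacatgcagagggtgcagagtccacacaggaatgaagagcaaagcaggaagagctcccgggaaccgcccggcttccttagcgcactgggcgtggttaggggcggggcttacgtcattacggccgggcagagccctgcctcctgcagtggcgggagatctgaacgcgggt
The single *Tnip3* site matches on both strands, both *Madcam1* sites match on the − strand, and the *Aunip* window has 0 matches. Of the 16 leading rising genes of both classes 11 were in the table, and the windows of *Saa3*, *Pkd1l1*, *Fgf23*, *P2rx1*, *Chrna1*, *Il11*, *Sapcd2* and *Eme1* also had 0. A match was present in 4.62% of all 20519 promoters and in 5.24% of the 14603 of genes tested. It was present in 7.14% of 1456 genes whose rise remained and was held, and in 15.9% of the 214 of these with a change of at least 1 in both fibroblasts. It was present in 4.02% of 870 genes whose rise appeared and was held, and in 3.85% of the 234 of these with a change of at least 1 in iCre. These shares describe letters in a window and are not binding.

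Most mRNAs of the NF-κB system still rose with TNFα at 24 h, which does not measure NF-κB activity. By immunoblot at an earlier time, the study reported that NF-κB activation by TNFα was nearly lost without TAK1. Of 19 NF-κB subunits, inhibitors and feedback genes, 15 rose in iCre fibroblasts and 14 were held, against 17 in LacZ, with a median change of 1.11 in iCre (0.89 after GC correction) and 1.46 in LacZ. The interaction was negative for 9 of them and positive for *Map3k14* alone, the kinase of the non-canonical pathway, and 12 were negative after GC correction. *Tifa*, an adaptor of TRAF6, was the 1 gene that fell, with a change of −0.42, and none fell without replicate 3 or without the block. After GC correction its change was −0.29 and not called.

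*Nfkbia*, which encodes the inhibitor IκBα, was at 26.5, 27.2, 23.4 and 27.6 CPM in iCre CTRL and at 163, 194, 176 and 139 CPM with TNFα. Every TNFα library was above every CTRL library, and the rise was 2.71 (SE 0.10, edgeR adjusted p = 1.5e-06) against 3.44 in LacZ, a difference of −0.74 (SE 0.18, edgeR adjusted p = 0.00576). The gene *Tnfaip3*, which encodes the ubiquitin editor A20, went from 13.6, 7.74, 18.9 and 18.98 CPM to 102, 69.97, 93.1 and 58.4 CPM and rose by 2.52 (SE 0.22, edgeR adjusted p = 2.13e-05), against 4.64 in LacZ, where TNFα libraries were at 296, 333, 229 and 226 CPM. *Traf1*, an adaptor of TNF receptor 2, rose from 0.785, 2.36, 1.52 and 1.56 CPM to 13.8, 24.2, 19.9 and 23.5 CPM, by 3.78 (SE 0.14, edgeR adjusted p = 1.5e-06) in iCre and 3.32 in LacZ, and the difference of 0.50 (SE 0.24, edgeR adjusted p = 0.164) was not called. *Relb* rose by 1.55 in iCre and 2.52 in LacZ, *Nfkb2* by 1.76 and 2.07, *Nfkb1* by 0.45 and 1.19, and *Rela* by 0.64 and 1.25.

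In the receptor complex upstream, 13 of 21 genes rose in iCre, 7 of them held, and only 6 rose without replicate 3 or without replicate 4. *Tnfrsf1b*, the gene of TNF receptor 2, was at 48.7, 72.2, 51.4 and 57.2 CPM in CTRL and 132, 79.8, 107 and 85.8 CPM with TNFα, a rise of 0.84 (SE 0.18, edgeR adjusted p = 0.00389). *Tnfrsf1a*, the gene of TNF receptor 1, changed by 0.23 in the first fit and −0.02 after GC correction, so its direction rests on that choice, and it was not called without replicate 1, 3 or 4, at 0.19, 0.18 and 0.24.

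Most target genes for adhesion, defence and survival kept a smaller rise. Of 20, 16 rose in iCre (15 held) and 18 in LacZ, with medians of 1.29 and 3.19, and the interaction was negative for 14. It was positive for *Bcl2l1*, which inhibits apoptosis, at 0.68 and for *Il4ra*, an interleukin 4 receptor subunit, at 0.86. *Vcam1*, the adhesion molecule for monocytes and lymphocytes, was at 737, 490.2, 733 and 728 CPM in iCre CTRL and at 2313, 921, 2031 and 1352 CPM with TNFα, and with TNFα in LacZ at 6402, 5089.6, 6741 and 5934 CPM. The lowest LacZ library with TNFα was above the highest iCre library with TNFα, and the rise was 1.26 (SE 0.13, edgeR adjusted p = 5.59e-05) against 3.14. *Saa3*, an acute-phase apolipoprotein, went from 0.589, 1.53, 0.439 and 0.869 CPM to 17.2, 24.4, 8.33 and 6.94 CPM in iCre, a rise of 4.06 (SE 0.25, edgeR adjusted p = 4.62e-06), and reached 799, 2290.2, 1072 and 949 CPM in LacZ.

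Complement *C3* was at 500.5, 338, 464 and 539.8 CPM in CTRL and at 2258, 890.5, 1405 and 646 CPM with TNFα, with the rise of 1.400 (SE 0.25, edgeR adjusted p = 0.00141) against 3.43 in LacZ. *Csf1*, the growth factor of macrophages, kept more of its response, at 379, 376, 508 and 549 CPM and 1195, 1079, 1802 and 1724 CPM, a rise of 1.698 against 2.298 and a difference of −0.61 (SE 0.17, edgeR adjusted p = 0.0142). A part of the list was not called in iCre. *Nos2*, inducible nitric oxide synthase, was at 0.0509, 0.333, 0.0389 and 0.0649 CPM in iCre with TNFα and at 4.44, 25.2, 20.5 and 10.7 CPM in LacZ, and *Ptx3*, long pentraxin 3, was at 108, 11.2, 42.5 and 32.04 CPM and 1732, 647, 1311 and 1617 CPM. For *Ptx3* the change in iCre was 0.40 (SE 0.27, edgeR adjusted p = 0.326), and the libraries of both iCre groups overlapped, although without replicate 4 the change was 0.76 and called.

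Chemokines divided in the same way. Of 15 CC chemokines, 6 rose and were held in iCre, and 11 rose in LacZ, with medians of 1.24 and 2.42 and 5 negative interactions. Without replicate 1 the median in iCre was 0.66, and without replicate 3 the interaction was negative for 3. *Ccl2*, which recruits monocytes, was at 20.9, 41.4, 11.96 and 31.9 CPM in iCre CTRL and at 641, 1207, 709 and 677 CPM with TNFα. The rise of 5.05 (SE 0.22, edgeR adjusted p = 1.85e-06) was the second largest of all genes meeting the limits for naming, and the LacZ libraries with TNFα were at 2069, 2230.3, 1747 and 1831 CPM, with a difference of −2.12 (SE 0.32, edgeR adjusted p = 0.000153). *Ccl7*, a further monocyte attractant, rose from 14.4, 16.3, 8.59 and 19.01 CPM to 248, 234, 229 and 153 CPM, and *Ccl9* rose by 2.06 in iCre and 2.48 in LacZ with a difference of −0.34 that was smaller than its SE of 0.37. *Ccl5*, which attracts T cells, rose by 3.05 in iCre and 6.56 in LacZ.

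Of 13 CXC and CX3C chemokines, 7 rose and 3 fell in iCre, while 10 rose and 2 fell in LacZ, and in iCre 4 rose without replicate 3 or without the block. *Cxcl1*, an attractant of neutrophils, was at 4.68, 4.101, 2.81 and 1.91 CPM in iCre CTRL and 8.21, 9.59, 4.46 and 3.34 CPM with TNFα, a rise of 0.92 (SE 0.14, edgeR adjusted p = 0.000673, 0.0917 without the block) with overlapping groups. For *Cxcl5*, with the same receptor, the direction differed. It was at 4.45, 23.2, 5.94 and 5.28 CPM and 3.59, 7.04, 2.55 and 2.66 CPM, a change of −1.05 (SE 0.20, edgeR adjusted p = 0.00256, 0.131 without the block) against a rise of 2.29 in LacZ. *Cxcl12*, which retains haematopoietic cells through CXCR4, was lower with TNFα in every pair, from 2582, 3840.5, 4235 and 3191 CPM to 1673, 953, 1514 and 677 CPM, with a change of −1.56 (SE 0.22, edgeR adjusted p = 0.000377) against −0.42 in LacZ.

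The remaining leading genes of this response were scarce in CTRL. *Tnip3* was at 0.196, 0, 0 and 0.0348 CPM and rose to 2.11, 1.43, 1.79 and 1.26 CPM, a change of 5.08 (SE 0.62, edgeR adjusted p = 0.000145), and was at 9.73, 14.7, 11.7 and 10.6 CPM with TNFα in LacZ. *Madcam1* went from 0.0327, 0.214, 0.0199 and 0.0348 CPM to 1.98, 2.16, 1.54 and 0.649 CPM, a change of 4.53 (SE 0.47, edgeR adjusted p = 5.93e-05), against 11.3, 49.4, 10.1 and 11.8 CPM in LacZ with TNFα. In both genes no TNFα library overlapped a CTRL library, as the limits for naming required. Of all genes tested, 14.5% had every TNFα library above every CTRL library in iCre. *Slc39a4*, a zinc importer, rose by 3.65, *Fgf23*, a phosphate hormone, by 4.35 and *Pkd1l1*, of the polycystin family, by 3.99, with LacZ changes of 5.57, 3.61 and 4.71. *Clec4n*, the fungal receptor dectin 2, was at 0.0982, 0.0306, 0 and 0.139 CPM in CTRL and at 1.14, 1.17, 0.331 and 3.63 CPM with TNFα, a change of 4.54 against 2.54.

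**Figure D3:**
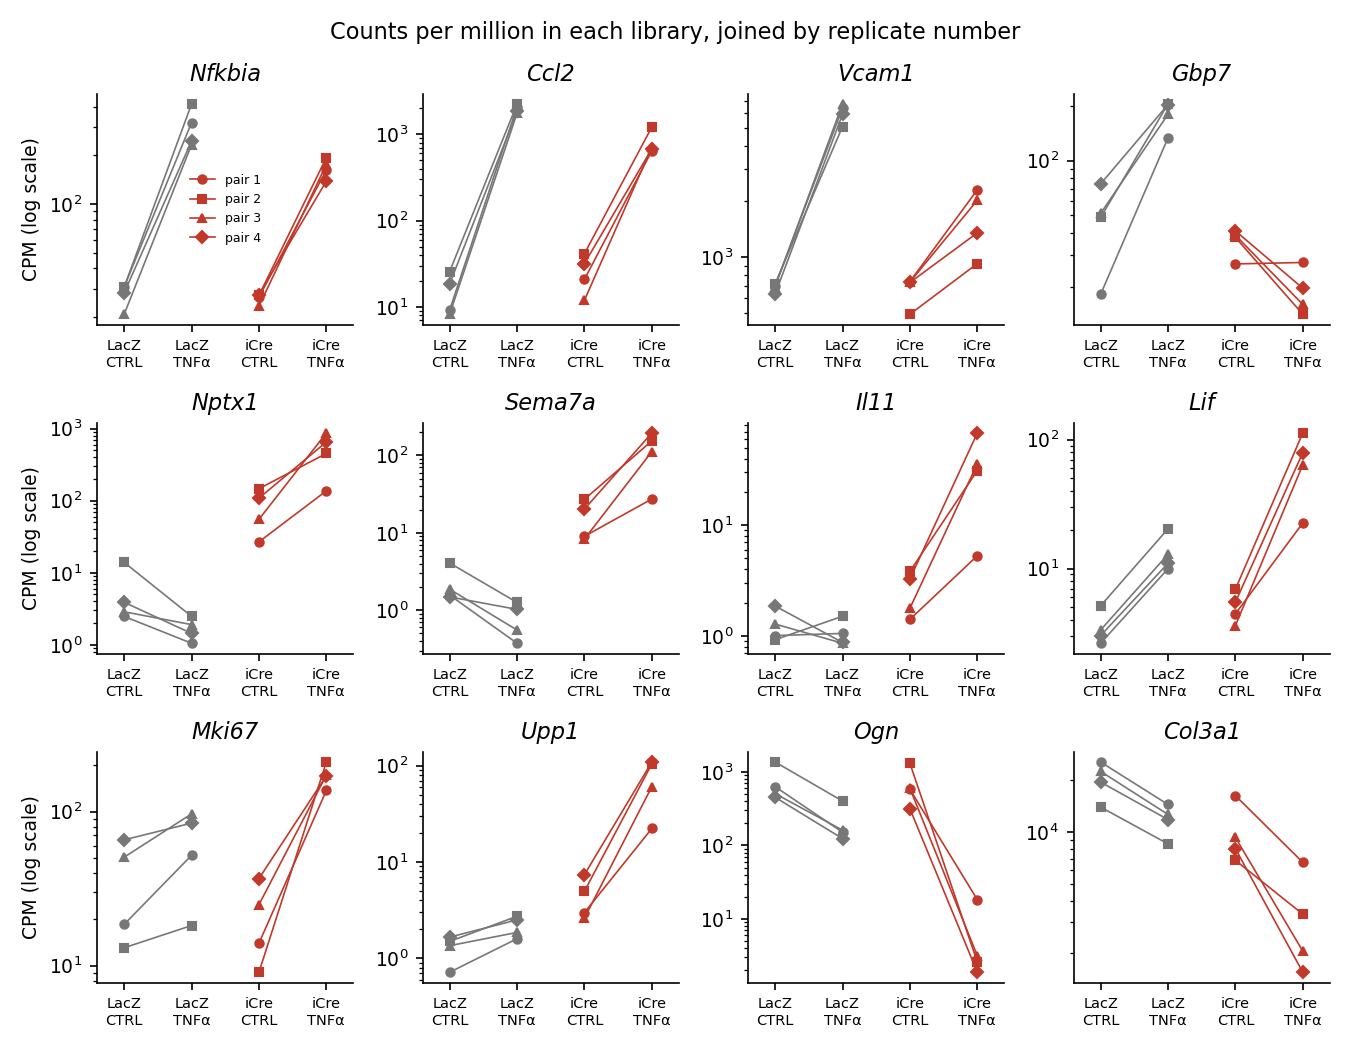
CPM on a log axis for 12 genes in the LacZ (grey) and iCre (red) libraries in CTRL and with TNFα, with lines joining libraries of the same replicate number. *Nfkbia*, *Ccl2* and *Vcam1* rise in both fibroblasts, and *Gbp7* rises in LacZ and not in iCre. *Nptx1*, *Sema7a* and *Il11* rise in iCre, and *Mki67* and *Upp1* rise more in iCre than in LacZ. *Ogn* and *Col3a1* fall.

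Proliferation genes rose further without TAK1 than with it. All 18 rose with TNFα in iCre under every setting with no limit on the fold change, with changes from 0.63 to 3.67, and in all 18 the groups did not overlap. Their median was 2.56 in iCre (2.64 after GC correction) and 0.51 in LacZ, where 14 also rose (1 without the block). The interaction was positive for 17, for 18 after GC correction or without replicate 1, and for 13 without the block. *Mki67*, the marker of cycling cells, was at 13.97, 9.06, 24.9 and 36.8 CPM in iCre CTRL and at 137, 209.8, 173 and 171 CPM with TNFα, and in LacZ at 18.5, 13.1, 50.6 and 65.6 CPM and 52.02, 18.2, 96.6 and 84.2 CPM. The lowest iCre library with TNFα was above all 4 LacZ libraries with TNFα, and the changes were 3.21 (SE 0.31, edgeR adjusted p = 3.81e-05) and 0.82 (SE 0.12, edgeR adjusted p = 3.26e-05).

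*Cdk1*, the kinase that drives mitosis, was at 11.3, 10.9, 16.5 and 16.1 CPM and 44.3, 71.6, 65.9 and 79.2 CPM in iCre, a rise of 2.28 (SE 0.12, edgeR adjusted p = 3.57e-06), and its change in LacZ was 0.01 (SE 0.11, edgeR adjusted p = 0.964). *Top2a*, a topoisomerase of dividing cells, rose by 2.62 and *Pcna*, the sliding clamp of DNA replication, by 1.49, against 0.74 and 0.23 in LacZ. The mitotic genes *Plk1* and *Birc5* rose by 3.63 and 3.45 in iCre. Set beside the mitogen in the series, *Mki67* was at 173 ± 29.7 CPM (SD, n = 4) in iCre with TNFα, 130.1 ± 38.3 with bFGF and 30.7 ± 22.5 with IL-1β, and at 159 ± 26.5 in LacZ with bFGF. Among the 8 leading genes of the response that appeared, *Aunip*, *Sapcd2*, which orients the spindle, and *Eme1*, a subunit of a repair nuclease, also belong to dividing cells. *Aunip* was at 0.0982, 0.0612, 0.259 and 0.174 CPM in CTRL and 1.04, 3.28, 1.87 and 3.28 CPM with TNFα, a rise of 3.88 (SE 0.40, edgeR adjusted p = 5.72e-05) against 0.64 in LacZ, which was not called there, and *Sapcd2* and *Eme1* rose by 3.56 and 3.43. *BC030867* rose from 0.295, 0.428, 0.558 and 0.939 CPM to 3.76, 8.09, 7.55 and 8.85 CPM, by 3.73, and the long noncoding RNA *D5Ertd615e* was at 0.407, 2.95, 0.409 and 2.14 CPM with TNFα.

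**Figure D4:**
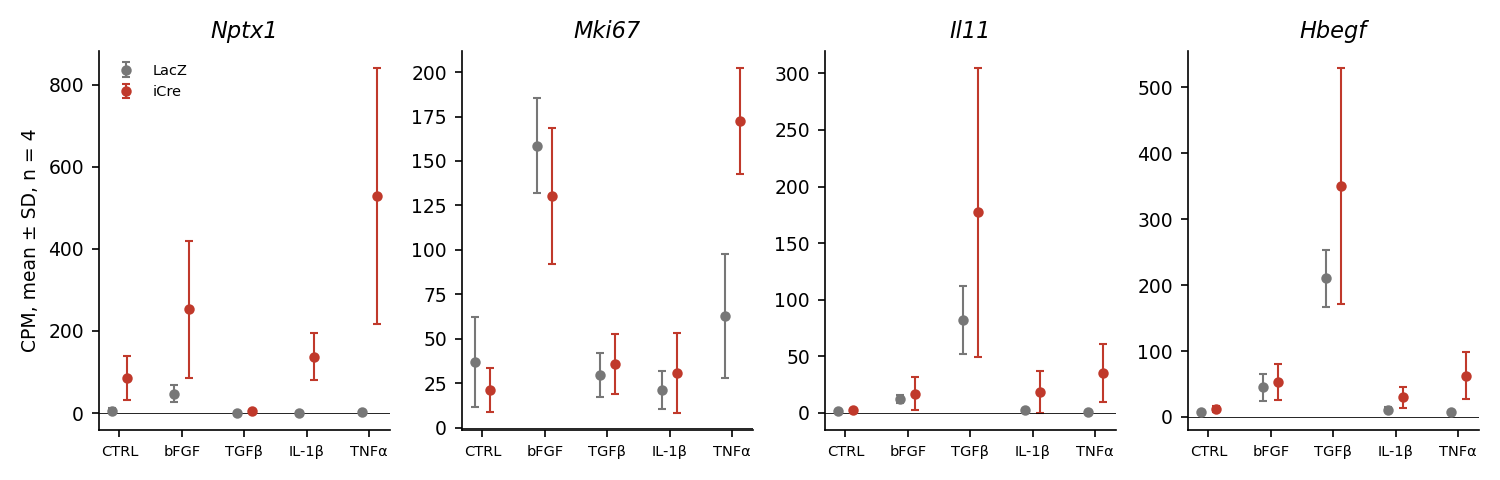
Mean CPM and SD of 4 libraries for *Nptx1*, *Mki67*, *Il11* and *Hbegf* in the 5 ligand groups, LacZ in grey and iCre in red, with axes from 0. *Nptx1* was highest in iCre with TNFα, *Mki67* was high with bFGF in both fibroblasts and with TNFα in iCre, and *Il11* and *Hbegf* were highest with TGFβ.

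Several cytokines of the IL-6 family rose with TNFα in iCre. Of 20 cytokines and colony-stimulating factors, 9 rose and 1 fell in iCre against 7 and 0 in LacZ, and the interaction was positive for 6 and negative for 2 (2 fell without replicate 2). Without replicate 4 or without the block the interaction was negative for 1. *Il11*, a cytokine of fibrotic fibroblasts, was at 1.41, 3.83, 1.77 and 3.27 CPM in iCre CTRL and at 5.29, 31.1, 35.8 and 68.00 CPM with TNFα, and stayed at 1.05, 1.503, 0.857 and 0.871 CPM in LacZ. No TNFα library of iCre overlapped a CTRL library, as the limits for naming required, although pair 1 changed least. The rise was 3.57 (SE 0.35, edgeR adjusted p = 4.37e-05) against −0.21 in LacZ (SE 0.27, edgeR adjusted p = 0.627). *Lif*, leukaemia inhibitory factor, rose in both, from 4.45, 6.92, 3.61 and 5.49 CPM to 22.6, 113, 63.8 and 79.2 CPM in iCre, by 3.66 (SE 0.26, edgeR adjusted p = 9.3e-06) against 1.94, with a positive interaction of 1.75 (SE 0.33, edgeR adjusted p = 0.00106).

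*Clcf1*, a further ligand of this family, rose by 1.67 (SE 0.14, edgeR adjusted p = 2.15e-05) in iCre and changed by −0.12 in LacZ. *Il6* itself was at 14.2, 7.78, 19.6 and 17.4 CPM with TNFα in iCre and at 16.5, 18.3, 19.5 and 19.7 CPM in LacZ, and its rises of 3.06 and 2.95 differed by 0.10, less than the SE of 0.30. *Tslp*, an epithelial-type cytokine, rose by 2.09 in iCre and 0.36 in LacZ. *Csf3* passed the test with 1 library, at 0, 2.33, 0.0195 and 0.0324 CPM with TNFα, and without replicate 2 its change was 2.63 with an edgeR adjusted p of 0.55.

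Growth factors, with the ligands of the EGF receptor, moved in both directions. Of 20, 12 rose and 4 fell in iCre and 10 rose and 7 fell in LacZ, with positive interactions for 7 and negative for 3, although without replicate 2 or without the block the number that fell in iCre was 2. The positive interactions numbered 2 without replicate 3 or without the block and 3 without replicate 4. In LacZ 5 rose and 2 fell without the block. *Hbegf* was at 8.18, 17.8, 8.73 and 11.4 CPM in iCre CTRL and at 19.9, 56.5, 68.2 and 106 CPM with TNFα, with no overlap, a rise of 2.33 (SE 0.29, edgeR adjusted p = 0.000175), while the LacZ libraries were at 6.79, 9.77, 8.41 and 6.04 CPM and 6.78, 7.86, 7.66 and 8.296 CPM. *Areg*, amphiregulin, went from 0.0327, 1.04, 0.0598 and 0.139 CPM to 0.432, 3.497, 2.297 and 3.31 CPM in iCre, where the highest CTRL library was above the lowest TNFα library. *Inhba*, which encodes the activin A subunit, rose by 1.35 and *Vegfa* by 0.91 in iCre, against 0.22 and 0.36 in LacZ. In the other direction *Vegfd*, a lymphangiogenic factor, went from 486, 252, 406 and 342 CPM to 223, 28.5, 69.2 and 35.3 CPM, a change of −2.500 (SE 0.31, edgeR adjusted p = 0.000161) against −0.78.

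*Nptx1*, at chr11:119538719-119547753, encodes neuronal pentraxin 1, a secreted protein known from synapses. In iCre CTRL it was at 26.9, 147, 55.1 and 109 CPM and with TNFα at 137, 454, 871 and 654 CPM, and in LacZ at 2.48, 13.9, 2.87 and 3.89 CPM and 1.05, 2.48, 1.91 and 1.44 CPM. Each iCre library was above each LacZ library already in CTRL, and within iCre every pair rose although TNFα replicate 1 lay below CTRL replicate 2. The change was 2.66 in iCre (SE 0.31, edgeR adjusted p = 0.000115), 2.42 after GC correction, and −1.49 in LacZ (SE 0.22, edgeR adjusted p = 2.76e-05), with an interaction of 4.39 (SE 0.59, edgeR adjusted p = 6.83e-05). *Sema7a*, a membrane-anchored semaphorin, had the same signs, from 9.0, 27.1, 8.29 and 20.3 CPM to 27.3, 154, 112 and 195 CPM in iCre and from 1.56, 4.06, 1.86 and 1.48 CPM to 0.373, 1.26, 0.553 and 1.02 CPM in LacZ, with changes of 2.84 (SE 0.29, edgeR adjusted p = 5.32e-05) and −1.49 (SE 0.24, edgeR adjusted p = 6.55e-05).

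Of all 20 semaphorin, pentraxin and axon guidance genes, 10 rose and 5 fell in iCre, 10 rose and 6 fell in LacZ, and the interaction was positive for 7 and negative for 5. Without replicate 3 or without the block, 3 of them fell in iCre. The interaction was negative for 8 without replicate 1 and for 3 without replicate 3, replicate 4 or the block, and after GC correction it was positive for 6 and negative for 7. Without the block it was positive for 4, with 4 that rose and 2 that fell in LacZ. *Slit2*, a guidance ligand, rose by 0.81 and *Unc5b*, a netrin receptor, by 0.72, while *Slit3* changed by −0.89 (SE 0.21, edgeR adjusted p = 0.00801, 0.432 without the block) and lost its call without replicate 3, at −0.87.

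*Upp1*, uridine phosphorylase, went from 2.98, 4.96, 2.61 and 7.37 CPM to 22.2, 104, 60.4 and 109 CPM in iCre, a rise of 4.0 (SE 0.23, edgeR adjusted p = 4.1e-06) against 0.75 in LacZ. *Acpp*, an acid phosphatase, rose from 0.3600, 1.07, 0.359 and 0.799 CPM to 5.900, 26.4, 9.65 and 9.76 CPM, by 4.32 against 1.86. *Mmp10*, stromelysin 2, was at 1.86, 68.5, 3.33 and 3.34 CPM with TNFα, where replicate 2 stood far above the rest. It rose by 4.04 in iCre and changed by 1.55 in LacZ, with an interaction of 2.36 (SE 0.99, edgeR adjusted p = 0.104), which was not called. *Chrna1*, the α subunit of the muscle acetylcholine receptor, was at 3.46, 34.7, 2.84 and 4.44 CPM with TNFα, with replicate 2 also the highest, and *P2rx1*, an ATP-gated channel, at 0.687, 1.26, 3.504 and 3.96 CPM.

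Of 14 oxidative stress genes, which the factor NRF2 controls, 10 rose and 1 fell in iCre against 6 and 4 in LacZ, with 5 positive and 1 negative interactions (2 fell in iCre without replicate 4). The interaction was negative for 0 without replicate 2, 3 or 4. Without replicate 1 the interaction was positive for 8 and 2 fell in LacZ, where 0 fell without the block. *Hmox1*, haem oxygenase 1, was at 165, 321, 163 and 194 CPM in CTRL and 299, 576, 434 and 724 CPM with TNFα in iCre, a rise of 1.28 (SE 0.16, edgeR adjusted p = 0.000157) against 0.00. *Nqo1*, a quinone reductase, rose by 1.68 and *Prdx1*, a peroxiredoxin, by 0.92, while *Gstm1*, a glutathione transferase, changed by −1.22.

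Of 16 AP-1 and immediate early genes, 8 rose in iCre and 7 rose and 5 fell in LacZ. The interaction was positive for 6 and negative for 0, and after GC correction positive for 3 and negative for 3. It was positive for 3 and negative for 1 without replicate 3, positive for 2 without replicate 4 and for 0 without the block, where 0 fell in LacZ. *Jun* rose from 51.5, 140.1, 59.4 and 67.3 CPM to 155, 299, 206 and 229 CPM, by 1.59 (SE 0.11, edgeR adjusted p = 8.98e-06) against 0.41 in LacZ. *Fosl1* rose by 2.59 against 1.77.

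Among 16 measured prostanoid and leukotriene genes, 8 rose and 3 fell and all 11 were held. *Ptgs2*, cyclooxygenase 2, was at 15.3, 33.4, 22.3 and 31.01 CPM and 35.6, 208, 123 and 151 CPM in iCre, a rise of 2.21 (SE 0.20, edgeR adjusted p = 2.78e-05) against 1.58, and the difference of 0.57 (SE 0.42, edgeR adjusted p = 0.385) was not called. *Ptges*, the inducible prostaglandin E synthase, rose by 2.28 and 2.04, and *Ptgs1*, the constitutive cyclooxygenase, by 0.78 in iCre (edgeR adjusted p = 0.109 without the block) with −0.07 in LacZ.

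Most of the interferon-type response of LacZ fibroblasts was not called in iCre. Of 26 interferon-stimulated genes and their regulators, 25 rose with TNFα in LacZ and 2 in iCre, where 2 others fell, with medians of 1.88 and −0.29 and a negative interaction for 19. Without the block 16 rose in LacZ. The median in iCre was −0.70 without replicate 1, −0.09 without replicate 2 and −0.19 without replicate 3. The pairs of iCre libraries differed in direction. The median difference of the list between TNFα and CTRL in iCre was 0.94 in pair 1 and −0.80, −0.70 and −0.52 in the other 3 pairs, against 2.90 in pair 1 and 1.91, 1.56 and 1.19 in LacZ, and without replicate 1 the number of genes that fell was 20 of 26 and all 26 had a negative interaction.

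*Gbp7*, an interferon-induced GTPase, was at 26.9, 37.7, 38.7 and 40.9 CPM in CTRL and at 27.4, 14.2, 16.04 and 19.7 CPM with TNFα in iCre, with a change of −0.90 (SE 0.20, edgeR adjusted p = 0.00602) that was −0.79 and not called without replicate 3, against 2.05 in LacZ. *Ifit1*, which binds viral RNA, changed by −1.19 and was called neither after GC correction, at −1.04, nor without the block, nor without replicate 2, 3 or 4, at −0.91, −0.92 and −1.18. None of the 26 fell without replicate 3, and 1 fell without replicate 2 or 4. The genes that rose were *Irf1*, a direct NF-κB target, from 40.7, 38.8, 40.7 and 40.1 CPM to 81.7, 60.3, 62.8 and 53.7 CPM by 0.71 (SE 0.10, edgeR adjusted p = 0.000298) against 2.55, and *Bst2*, tetherin, by 0.77 (edgeR adjusted p = 0.0983 without the block) against 1.795. Without the GC correction or with it, the number of negative interactions was 19 or 20, and it was 14, 12 and 13 without replicate 2, 3 and 4 and 13 without the block.

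Genes of MHC class I presentation and the immunoproteasome kept a small rise. Of 13, 9 rose in iCre (7 held) and 13 in LacZ, with medians of 0.39 and 1.78 and 12 negative interactions (5 rose in iCre without the block, and 2 fell without replicate 1). *H2-K1* went from 231, 158, 216 and 271 CPM to 655, 247, 414 and 492 CPM in iCre, a rise of 1.02 (SE 0.12, edgeR adjusted p = 0.000138) against 2.98, and *H2-D1* rose by 0.59 (edgeR adjusted p = 0.0952 without the block) against 1.69, although class I genes share sequence and reads could be split between them. *Tapbp*, tapasin, rose by 0.39 and was called neither after GC correction, at 0.16, nor without the block, nor without replicate 3, at 0.39.

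**Figure D5:**
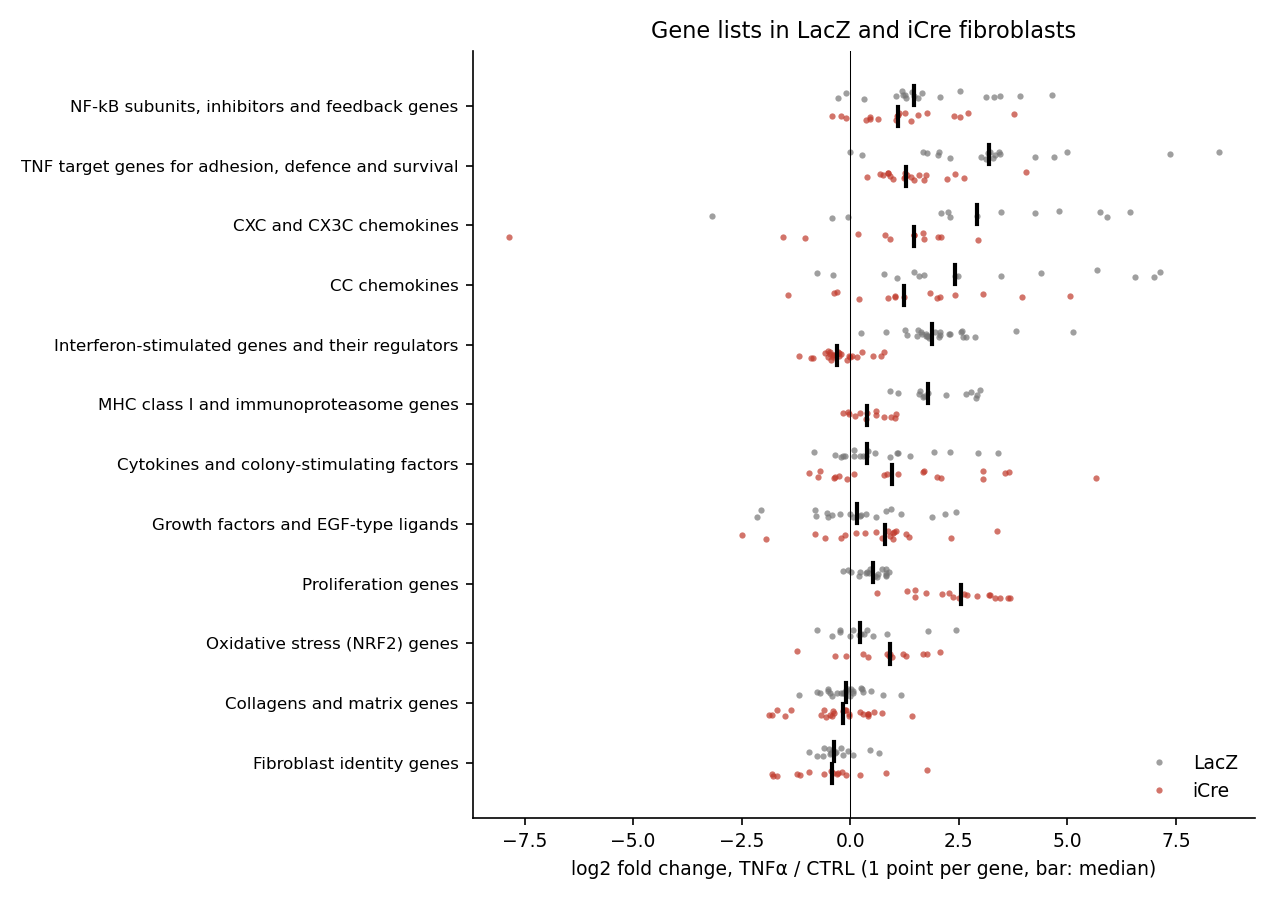
Log2 fold change of TNFα over CTRL for each measured gene of 12 lists (1 point per gene), LacZ in grey above and iCre in red below, with the median as a bar. The iCre medians lie below the LacZ medians for the NF-κB, adhesion, chemokine, interferon and MHC lists and above them for the cytokine, growth factor, proliferation and oxidative stress lists.

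Of 19 genes of cell death and survival, 14 rose and 2 fell in iCre, against 15 and 1 in LacZ (1 fell in iCre without replicate 2, 3 or 4 or without the block). The interaction was negative for 9 and positive for 4, and for 11 and 3 after GC correction. *Cflar*, which blocks caspase 8, was at 112, 110.1, 97.3 and 106 CPM and 133, 184, 169.7 and 171 CPM in iCre, a rise of 0.65 against 0.45 with a difference of 0.21 (SE 0.16). *Bax*, which permeabilises mitochondria, rose by 0.82 (SE 0.08, edgeR adjusted p = 4.08e-05) against 0.07 in LacZ, with an interaction of 0.74, and *Xiap*, a caspase inhibitor with a GC content of 36.8%, changed by −0.96 before and −0.23 after GC correction. Of 14 p53 target genes 4 rose and 5 fell, with a median of 0.00, and *Cdkn1a* and *Ccng1* lost their calls after GC correction, at 0.01 and −0.08, as *Cdkn1a* did without replicate 2, 3 or 4, at 0.20, 0.27 and 0.25. Of 16 ATF4 and amino acid stress genes 9 rose and 2 fell in iCre and 12 and 2 in LacZ, with *Shmt2*, a mitochondrial enzyme of serine use, rising by 1.496 and 1.28, and without the block 4 rose and 0 fell in iCre and 7 rose and 1 fell in LacZ, with 1 fall in each of iCre and LacZ without replicate 3. Of 15 cholesterol synthesis genes 1 rose and 4 fell, and without replicate 2 the number that fell was 11, while it was 2 without replicate 3, without replicate 4 or without the block. Without replicate 1, 2 or 3 none rose.

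More matrix and fibroblast genes fell than rose. Of 25 collagens and matrix genes, 10 fell and were held and 6 rose, of which 2 were held, against 9 that fell and 5 that rose in LacZ, and 1 rose without replicate 3 and 2 without replicate 1. Without the block 0 rose and 4 fell in iCre and 1 rose and 3 fell in LacZ. The interaction was negative for 4 of the 25 and positive for 1, and for 7 and 2 after GC correction. It was negative for 1 without replicate 3 or 4 and for 0 without the block. *Col3a1*, the collagen of compliant tissue, was at 16213, 6857, 9284 and 7998 CPM in iCre CTRL and at 6670.1, 3346, 2047 and 1544 CPM with TNFα, lower in every pair, with a change of −1.68 (SE 0.20, edgeR adjusted p = 0.000143) against −0.77 in LacZ. *Col1a1* went from 5307, 2949, 4331 and 3475 CPM to 3272, 2042, 2863 and 2061 CPM, a change of −0.61 (SE 0.07, edgeR adjusted p = 9.37e-05, 0.0746 without the block) with overlapping groups, against 0.06, and *Col1a2* changed by −0.40 (edgeR adjusted p = 0.148 without the block) against −0.05. *Lox*, which crosslinks collagen, changed by −1.504 and −0.15, and *Tnc*, tenascin C, rose by 1.42 in iCre (edgeR adjusted p = 0.079 without the block) with replicate 2 far above the others, at 167, 1484, 289.8 and 343 CPM.

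Among the 10 largest falls were the matrix genes *Ogn*, *Aspn*, *Adamtsl1* and *Adamts15*. *Ogn*, a small proteoglycan of fibroblasts, was at 579, 1309, 598 and 315 CPM in CTRL and at 18.3, 2.59, 3.15 and 1.88 CPM with TNFα in iCre, a change of −7.13 (SE 0.60, edgeR adjusted p = 1.85e-05), against −1.83 in LacZ, where TNFα libraries were at 151, 402, 161 and 124 CPM. *Aspn*, a related proteoglycan, changed by −5.68 before and −4.73 after GC correction, its GC content being 34.3%. *Inmt*, a methyltransferase of amines, fell in both, from 29.6, 13.6, 17.9 and 4.87 CPM to 0.2797, 0.1903, 0.0779 and 0.1297 CPM in iCre, with changes of −6.57 and −6.38 and a difference of −0.18 that was smaller than its SE of 0.74.

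*Adamtsl1* changed by −6.02, *Aoc3*, an amine oxidase, by −5.74, *Plagl1*, an imprinted transcription factor, by −5.73 and the imprinted RNA *H19* by −5.18, with −1.85, −3.62, −3.12 and −4.93 in LacZ. *Adamts15*, a protease of versican, changed by −5.41 and −2.02, *Gdpd2* by −5.19 and −3.11, and *Cnmd*, chondromodulin, by −4.36 and −4.84. The predicted gene *Gm12248* was at 3.01, 2.204, 1.59 and 0.695 CPM in CTRL and at 0.0254, 0.0476, 0 and 0 CPM with TNFα in iCre.

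Of the 16 fibroblast genes used to check the cell type, 11 fell and 3 rose in iCre, against 10 and 2 in LacZ. Their medians were −0.42 in iCre and −0.37 in LacZ. In iCre 7 fell without replicate 3 and 2 without the block, and in LacZ 1 fell without the block. Of 17 metalloproteinases and inhibitors, 9 rose and 4 fell in iCre (7 and 3 held), and without replicate 3 or without the block the number that fell was 2. In LacZ 8 rose and 6 fell (3 and 2 without the block). *Timp1*, an inhibitor of these proteases, rose from 364, 250.1, 366 and 487 CPM to 1214, 1063, 1912 and 2406 CPM, by 2.16 (SE 0.11, edgeR adjusted p = 2.75e-06) against 0.48, while *Mmp2* changed by −0.98 and −0.94. Of 17 contractile genes 6 rose and 5 fell in iCre, with 3 and 5 held, and without replicate 2 or 3 the number that fell was 3, and without the block it was 1. In LacZ 7 rose and 5 fell (4 and 1 without the block).

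Fewer falls than rises appeared without TAK1, 863 against 1444. With an absolute log2 fold change of at least 1 required as well, the counts were 464 and 489. *Akr1c14*, an aldo-keto reductase of steroids, was at 62.8, 18.7, 41.9 and 37.1 CPM in iCre CTRL and 10.9, 1.19, 2.16 and 2.205 CPM with TNFα, a change of −3.61 (SE 0.27, edgeR adjusted p = 1.04e-05) against 0.00 in LacZ. *Zfp979*, a zinc finger gene, changed by −3.43 before and −2.51 after GC correction, *Gm44220* changed by −3.73, and *Gm10226* was at 0.949, 0.888, 1.04 and 1.22 CPM in CTRL and 0, 0.119, 0 and 0 CPM with TNFα. Of the genes with opposite signs, ordered by the size of their change in iCre, the 4 described here fell in iCre and rose in LacZ, the reverse of *Nptx1* and *Sema7a*. *Fmo1*, a monooxygenase of drugs, went from 34.4, 4.07, 17.6 and 13.00 CPM to 3.79, 0.167, 0.467 and 0.389 CPM in iCre and from 40.5, 10.8, 47.2 and 41.3 CPM to 75.4, 49.1, 83.00 and 58.6 CPM in LacZ, with changes of −4.25 (SE 0.32, edgeR adjusted p = 1.13e-05) and 1.07 (SE 0.17, edgeR adjusted p = 5.2e-05). *Agtr1a*, the angiotensin II receptor, changed by −3.27 and 0.53, with *Olfr1033* at −4.09 and 0.91 and *Slc10a6*, a transporter of sulfated steroids, at −3.39 and 0.59.

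TNFα was then set against IL-1β within iCre fibroblasts, where both groups have the GC shift. By edgeR's test 2130 genes (8.45%) were higher with TNFα and 2173 (8.62%) lower, 4303 in all, which was 2160 without replicate 3, 2651 without replicate 4 and 669 without the block. After GC correction 1944 were higher and 2289 lower. All 18 proliferation genes were higher with TNFα, and *Mki67* differed by 2.74 (SE 0.30, edgeR adjusted p = 2.76e-05). Of the NF-κB genes 10 were higher and 5 lower with TNFα, and *Traf1* differed by 2.91 (SE 0.12, edgeR adjusted p = 1.27e-08), at 20.3 ± 4.75 CPM (SD, n = 4) with TNFα and 2.71 ± 0.581 with IL-1β. *Nptx1* was higher by 1.79 (SE 0.17, edgeR adjusted p = 5.98e-06), at 529 ± 312 and 138 ± 56.2 CPM.

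Of the 13 CXC and CX3C chemokines 6 were lower and 0 higher with TNFα than with IL-1β. *Cxcl5* differed by −5.22, *Cxcl1* by −4.15 and *Saa3* by −3.89 (SE 0.23, edgeR adjusted p = 2.51e-07), with *Saa3* at 14.2 ± 8.17 CPM (SD, n = 4) with TNFα and 202 ± 86.6 with IL-1β. Of the matrix genes 18 of 25 were lower with TNFα and 0 higher, and *Col3a1* differed by −1.71. *Lif*, at 69.5 ± 37.3 and 80.8 ± 40.2 CPM, differed by −0.30 (SE 0.24, edgeR adjusted p = 0.523), which was not called. Both ligands share the CTRL libraries, so their changes from CTRL are not compared further.

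Markers of other cell types were measured in the same libraries. Of 16 such genes 13 were tested, with a summed level of 322 to 965 CPM in iCre CTRL and 342 to 1285 CPM with TNFα, and *Cd3e* and *Myh6*, which mark T cells and cardiomyocytes, did not reach 10 counts over the 40 libraries. In iCre 4 rose and 4 fell, and 2 of each without the block. The endothelial genes moved apart, with *Cdh5* at 0.851, 1.93, 0.718 and 0.695 CPM and 1.81, 12.4, 4.85 and 5.38 CPM, a rise of 2.46 (SE 0.28, edgeR adjusted p = 9.69e-05), and *Kdr* at 0.687, 5.51, 0.797 and 0.348 CPM and 0.229, 0.143, 0.0779 and 0.227 CPM, a change of −2.88 (SE 0.66, edgeR adjusted p = 0.00662). *Lyz2*, of macrophages, rose by 0.43 (edgeR adjusted p = 0.00139, 0.58 without the block) and was at 66.5, 18.9, 19.6 and 62.9 CPM and 93.97, 22.6, 24.2 and 89.6 CPM, with high and low libraries of the same replicate number in both groups. The part of these cells in the changes above was not tested.

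Of the 1388 genes that appeared and rose, with at least 1 CPM on average, 54.8% had their smallest change in pair 1 in iCre, against 25.1% in LacZ, and of the 2185 whose rise remained 41.5% did, against 12.2%. Other lists had their largest median change in pair 1 in iCre, which was 1.41 for the NF-κB genes against 0.81 to 1.20 in the other pairs, 2.29 for the CC chemokines against 0.94 to 1.52, and 0.82 for the MHC genes against 0.23 to 0.33. Without replicate 1 the test found 4659 higher and 4197 lower genes in iCre.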

How the data were processed

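Poly(A) RNA libraries were sequenced from a single end. Per the labels and the study's methods, the authors aligned reads with STAR to the mouse genome mm10 and deposited raw HTSeq (0.10.0) counts per Ensembl gene in 1 table. The strand setting and annotation release were not given in the sources used here, and the labels and the methods name different library kits, so antisense and overlapping genes may share counts. The 8 iCre libraries compared held 25360947 to 50029007 counts.

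Genes with at least 10 counts over all 40 libraries were tested (25210) with edgeR 4.0.16 (R 4.3.3, TMM scaling, quasi-likelihood test, replicate number as a block). Of 55414 gene rows, 52133 matched GENCODE M21 (GRCm38), which gave names, positions and GC content. The interaction used 16 libraries. The GC correction subtracted from each library a lowess trend (span 0.3) as an offset. Paired numbers come from the titles, and libraries with the same number deviated together from their group means (correlations of 0.258 to 0.817 over 11116 genes, against means of −0.473 to −0.0237 for other numbers). Without this replicate block 3716 genes were higher and 3101 lower. No 2 libraries of any of the 10 groups agreed within sampling noise (chi-square per gene at least 13.2). Alternatives were no block, GC correction, DESeq2 1.42.0, its size factors, other filters, all 40 libraries, protein-coding genes, a robust fit, a fold limit and leaving out each replicate.

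The members, the 23 gene lists and the tests were chosen with earlier results of these data known. Genes were named as the largest rises and falls overall and by class among those held in both fits, with at least 1 CPM on average in the higher group and groups that did not overlap, and as up to 4 members of each list that were called and had the highest CPM. A further 21, such as *Sema7a*, *Hbegf*, *Tnfaip3*, *Traf1* and *Il6*, and the list members *Tifa*, *Map3k14*, *Bcl2l1* and *Il4ra*, were named after their values were seen. Some results are not reported here.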

Additional observations from a re-analysis of the deposited data

Results flagged for a closer look

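Of 292 groups of 4 libraries checked for a library far from the other 3 (Dixon's ratio of the gap to the range, past its 95% critical value, in CPM), 34 stood out, where chance gives about 1 in 20. Most of these were replicate 2. In CTRL it was the high library, in CPM, for *Adamts15* (183), *Areg* (1.04), *Cdh5* (1.93), *Csf3* (0.0306, which is 1 count), *Cxcl5* (23.2), *Gm44220* (4.13), *H19* (994), *Kdr* (5.51), *Madcam1* (0.214), *Plagl1* (181) and *Tnc* (333), and the low one for *Bgn* (3699.7) and *Vcam1* (490.2). With TNFα it was the high library for *Ccl2* (1207), *Chrna1* (34.7), *Csf3* (2.33), *Dhcr7* (17.0335), *Gm10226* (0.119), *H19* (8.49), *Hmgcs1* (81.8), *Mmp10* (68.5), *Nos2* (0.333), *Tnc* (1484) and *Tpm1* (1108). *H19* and *Tnc* therefore stood out in both groups in the library of the same number, as *Csf3* did at low counts.

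Replicate 1 with TNFα was the high library, in CPM, for genes that TNFα lowered, namely *Akr1c14* (10.9), *Aoc3* (1.86), *Aspn* (6.99), *Fmo1* (3.79) and *Ogn* (18.3). The other outlying libraries were CTRL replicate 1 for *Cxcl16* (high, 55.9) and *Mdm2* (low, 148), CTRL replicate 3 and TNFα replicate 4 for *Flna* (low, 980.0 and 1407), and CTRL replicate 4 for *Il6* (high, 2.78).

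The difference between the TNFα effect in iCre and in LacZ passed edgeR's interaction test for 6333 genes. It was positive for 3334 of them and negative for 2999, and for 2632 and 2799 after GC correction. Leaving out the genes named for a response that appeared, which have a called interaction by definition, and those named for their list or after their values were seen, it was positive on the log2 scale in both fits for *Acpp* (2.40), *Upp1* (3.24) and *Nptx1* (4.39). It was negative for *Map3k7* (−0.44), *Ccl7* (−1.66), *Aoc3* (−1.95), *Slc39a4* (−2.06), *Ccl2* (−2.12), *Gdpd2* (−2.26), *Plagl1* (−2.65), *Adamts15* (−3.13), *Agtr1a* (−3.77), *Slc10a6* (−3.92), *Adamtsl1* (−4.08), *Madcam1* (−4.22), *Saa3* (−4.38), *Olfr1033* (−4.94), *Ogn* (−4.96) and *Fmo1* (−5.01).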

How the results depend on the processing

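With an absolute log2 fold change of at least 1 required as well, 1212 genes were higher and 1911 lower with TNFα in iCre, 953 appeared, 1064 remained and 1173 differed between TNFα and IL-1β, which are fewer by construction. Without the replicate block, 2409 genes remained and 669 differed between TNFα and IL-1β, against 4641 and 4303 with it. Leaving out 1 replicate number gave 3668 to 4659 higher and 3149 to 4197 lower genes, 1712 to 2550 that appeared, 3363 to 4438 that remained and 2160 to 5112 that differed from IL-1β, the lowest without replicate 3 in each case, and the cause was not tested. GC correction with the block left 1825 that appeared and 4674 that remained, moved the share of calls that were higher from 52.3% to 46.8% (38.8% to 54.5% over all settings), and reversed 1 named gene, *Tnfrsf1a*, to −0.0162. Of 146 named genes, GC correction ended the call of 14, leaving out the block 32, DESeq2 in place of edgeR 7, DESeq2's size factors in edgeR 5, and a robust fit, which was chosen after seeing the data, 13. Leaving out replicate 1, 2, 3 or 4 ended the call of 10, 8, 17 or 13, the fold limit 54, and edgeR's own filter, no filter, protein-coding genes alone or a fit of all 40 libraries between 4 and 10. *Ptx3* became called without replicate 4. Depth limits genes below about 1 CPM, such as *Csf3*.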
